A study of Drosophila melanogaster with 3 samples.

Results

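The genes described here are 7 genes listed under insulin and TOR (target of rapamycin) growth signalling in Drosophila melanogaster: InR, chico, foxo, Tor, S6k, Thor and Lk6. They were listed by name, with the strength of the Lk6 peak already known from earlier results on these data, and a reproducible CG3919-eGFP peak was counted for a gene when its summit lay inside the gene span or up to 2 kb upstream of any of its transcription start sites (TSSs) on the dm6 assembly. This assigned 27 of 9569 reproducible peaks to 5 of the 7 genes, out of 13945 protein-coding genes on the main chromosome arms. The material was whole prepupae, males and females pooled, of 1 transgenic strain, CG3919-GFP, in which the product of CG3919 carries GFP at its C terminus. Age was not recorded beyond the stage, no treatment was given in the labels, and all samples form a single group. Chromatin was recovered with an antibody against GFP in 3 biological replicates, each with its own list of 30000 candidate regions, and all were compared with the same control file. Read depth is unknown from peak lists, whole animals mix all tissues, and with 1 group there is no condition to test, so the values are descriptions of 1 binding map. Peaks were ordered by the signal the authors deposited, separately in each list, rank 1 being the strongest.

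Insulin-like peptides in the fly activate the receptor InR, which signals through the adaptor Chico to PI3-kinase and Akt. Akt keeps the transcription factor Foxo out of the nucleus, and together with nutrients it promotes the activity of the kinase Tor, whose targets S6k and Thor set the rate of protein synthesis. In the fly this pathway sets body size during larval feeding. Feeding has stopped by the prepupa, the stage at which the steroid hormone ecdysone starts the replacement of larval tissues.

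Peaks were found at the receptor gene, at foxo and at all 3 genes that act on translation, whereas neither the adaptor gene chico nor Tor held a reproducible peak. InR had 12 peaks, foxo 5, S6k 5, Lk6 3 and Thor 2. Every gene with a peak had one within 500 bp of its own TSS, so 5 of 7 had a promoter peak, beside 23.1% of all protein-coding genes. This share was not matched for length or for the number of TSSs. InR has 4 annotated TSSs, and foxo, Thor and Lk6 have 2 each. By the wider rule also 5 of 7 genes had a peak, beside 33.2% of protein-coding genes and 73.8% of the 1013 with a span of 20 kb or more. Only InR and foxo are of that length, with spans of 49.1 kb and 31.0 kb. The wider rule was also applied to the strongest 9569 candidates of each replicate. In replicates 1, 2 and 3, 6, 5 and 6 of the 7 genes had a candidate, and 5.67 ± 0.577 (SD, n = 3) on average. By the same rule 32.6%, 35.0% and 35.0% of all protein-coding genes had a candidate. The number of candidates at the 7 genes was 23, 28 and 30, a mean of 27 ± 3.61 (SD, n = 3). The extra gene in replicates 1 and 3 was Tor.

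**Figure D1:**
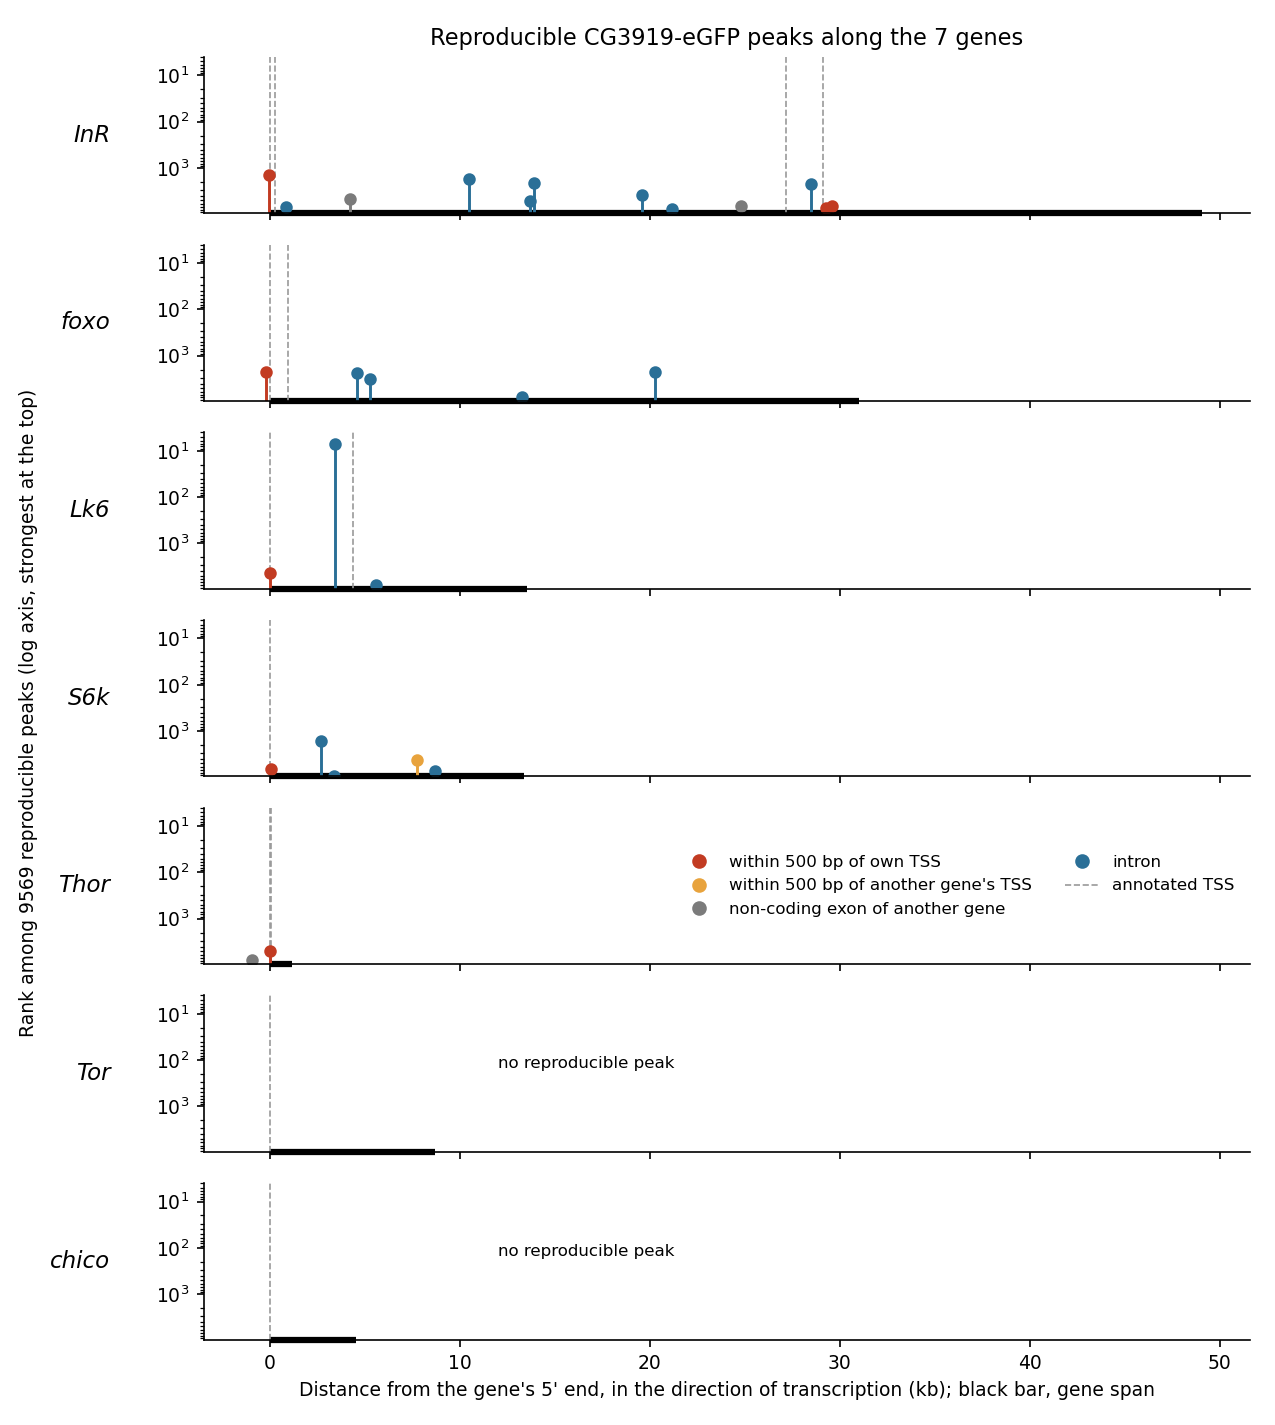
Position and rank of the 27 reproducible peaks along the 7 genes: the x axis is the distance from the 5' end of the gene in kb, the y axis the rank among 9569 peaks on a log scale with the strongest at the top, dashed lines are annotated TSSs and black bars gene spans. The Lk6 peak of rank 7 stands far above all others, which lie between ranks 1396 and 9279, and Tor and chico are empty.

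Most of the 27 peaks lay in introns and only 1 was among the strongest of the genome. An intron held 16 summits (59.3%), and introns held 42.7% of all reproducible summits. The rule for the 7 genes leaves out most intergenic sequence, and without the 1760 summits of the intergenic class introns held 4089 of 7809 (52.4%). A further 7 summits lay within 500 bp of a TSS of the gene itself, 3 in exons of long non-coding RNA genes within or beside InR and Thor, and 1 at the TSS of CG42272, a gene nested in S6k. None lay in a coding exon away from a TSS. The median rank of the intronic peaks was 3508 and that of the promoter peaks 4896. Over all reproducible peaks the order was the opposite, with a median rank of 4948 in introns and 4438 within 500 bp of a TSS of any gene. Counted in that way, 8 of the 27 peaks were at a TSS, with a median rank of 4642. In the replicate lists the intronic medians were 2816, 3154 and 2795 in replicates 1, 2 and 3, and the promoter medians 5879, 4369 and 4332. The intronic median was thus the stronger in each of the 3 lists, with intronic peaks ranging from rank 7 to 9279 and promoter peaks from 1396 to 7260, so that both groups overlap widely. Peaks without a candidate were left out of the replicate medians, so the intronic ones cover 15, 16 and 15 of 16 peaks. Some overlapping InR peaks share their replicate candidates. These are the intronic peaks at reproducible ranks 2125 and 5229 and the promoter peaks at 6535 and 7260. The intronic and promoter peaks of 1 gene are not independent samples, and no test was made. Of the 27 peaks, 14 were among the strongest 4784 of the list, 1 was among the strongest 956, and the median rank was 4702, close to the middle of the list at 4785. In all 3 replicates, 20 of 27 peaks (74.1%) were matched among the 9569 strongest candidates, beside 72.8% of all reproducible peaks.

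**Figure D2:**
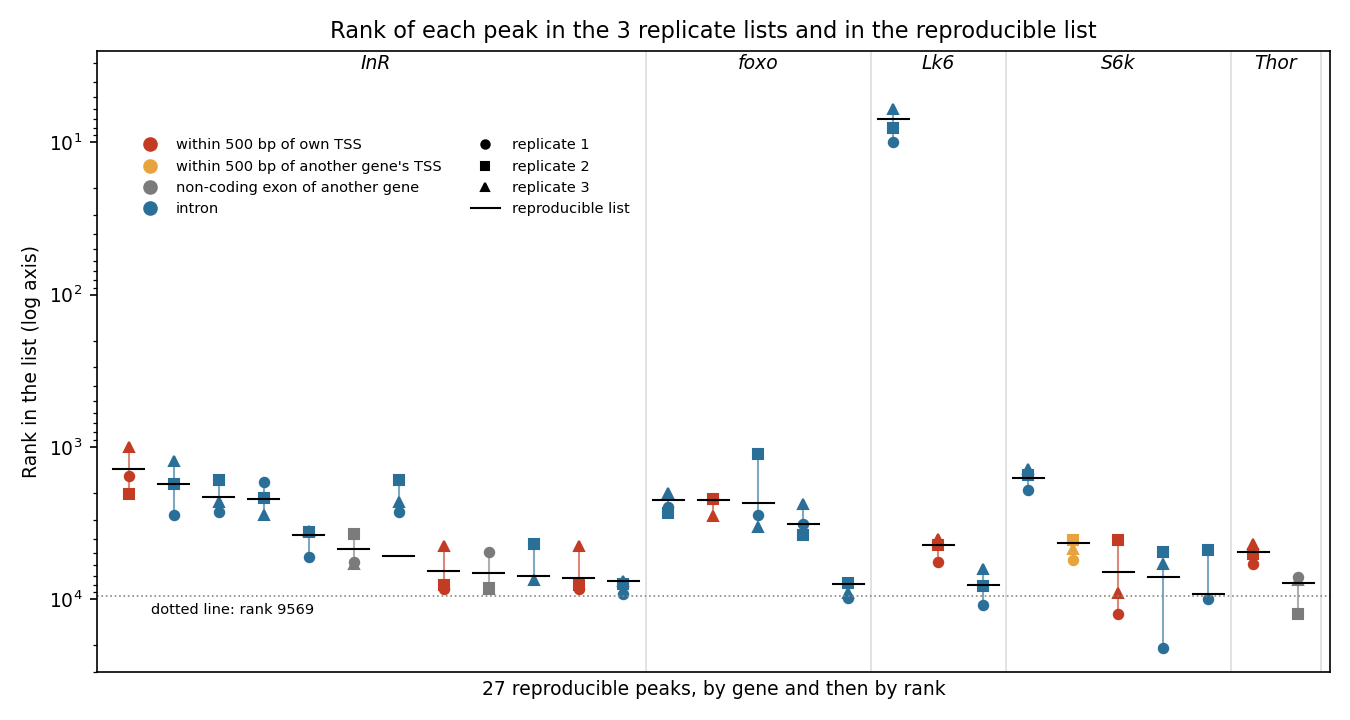
Rank of each of the 27 peaks in the candidate list of each replicate (points, with a line from the lowest to the highest) and in the reproducible list (black bars), on a log axis. The Lk6 peak ranks 10, 8 and 6, peaks at reproducible ranks from 1396 to 2329 lie between 1001 and 3368 in every replicate, the widest spreads are at S6k, and overlapping InR peaks show the same points because they share candidates.

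The insulin receptor gene InR (FBgn0283499, 3R at 21570248 to 21619321, minus strand) had more peaks than the 6 other genes. Its 12 peaks are a count that 81 protein-coding genes reach or exceed (0.581%), and all 81 are among the 1013 genes of 20 kb or more, of which they are 8%. The median of genes with a span of 20 kb or more was 3 peaks. The strongest peak (rank 1396) was at the upstream promoter, with its summit 59 bp upstream of the outermost TSS, and it ranked 1546, 2022 and 1001 in replicates 1, 2 and 3 (mean 1523 ± 510.9, SD, n = 3). The next 3 summits, all intronic, had reproducible ranks from 1747 to 2192. The peak at rank 1747, 10212 bp downstream of the second outer TSS, ranked 2805, 1747 and 1233, so its range overlaps that of the promoter peak. The next, at rank 2125, lay in the same first intron and ranked 2653, 1650 and 2314. The last of these, at rank 2192, lay 615 bp upstream of the innermost TSS and ranked 1707, 2170 and 2795. The other 8 peaks had ranks from 3809 to 7635.

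InR has 4 annotated TSSs in an outer and an inner pair, and both pairs had peaks near them. The peak of rank 1396 was within 500 bp of both outer TSSs. Of the inner pair, the TSS at 21590191 had 2 weak overlapping peaks downstream, at ranks 6535 and 7260, and the TSS at 21592121 had none within 500 bp, the nearest summit being 1315 bp away. The summits ran from 59 bp upstream of the outer TSS to 29.6 kb into the gene, and the remaining 19.5 kb to its 3' end had none. Of the 7 intronic summits, 5 lay in the first intron of at least 1 transcript. A pair of summits lay in exons of lncRNA:Irar and lncRNA:CR44034, non-coding genes within InR, at ranks 6753 and 4702. A rank 7014 peak lay 554 bp downstream of the second outer TSS, 839 bp from the outermost one. It had no candidate in replicate 1 and ranked 4357 and 7504 in replicates 2 and 3.

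The windows at the InR promoter peak and at the strongest intronic peak are shown because they differ in composition although their ranks are close. Both are on the plus strand of dm6 and thus antisense to InR, and the promoter window, chr3R:21619322-21619480, stops at the TSS so that no exon is included. The intronic window is chr3R:21608724-21608924, 100 bp either side of the summit.
InR promoter: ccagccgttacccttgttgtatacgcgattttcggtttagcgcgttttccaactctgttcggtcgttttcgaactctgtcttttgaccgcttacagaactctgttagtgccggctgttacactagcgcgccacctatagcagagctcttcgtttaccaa
InR intron: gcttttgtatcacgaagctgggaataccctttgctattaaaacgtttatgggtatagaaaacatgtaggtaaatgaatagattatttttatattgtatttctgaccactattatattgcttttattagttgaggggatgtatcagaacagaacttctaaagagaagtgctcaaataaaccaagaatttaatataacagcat
The share of G and C around the summit, over 201 bp, was 49.8% at the promoter and 30.3% in the intron, and the median over all reproducible summits was 36.3%. Neither window holds any of the 7 motifs searched, described below.

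The adaptor gene chico (FBgn0024248, 2L at 10242512 to 10247078), whose product links the receptor to PI3-kinase, had no reproducible peak. No candidate region lay in its span or in the 2 kb upstream in the pooled list or in any of the 3 replicate lists of 30000. The nearest reproducible summit was 46022 bp away from its TSS, at RpL7. A peak under the lowest listed signal would not appear, so the lists do not show that binding is absent there.

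The transcription factor gene foxo (FBgn0038197, 3R at 14056945 to 14087978, plus strand) had 1 promoter peak and 4 intronic peaks, and its promoter peak and strongest intronic peak were almost level. The promoter peak, 210 bp upstream of the TSS used by 4 annotated transcripts, was at rank 2238 and ranked 2192, 2189 and 2849 in replicates 1, 2 and 3 (mean 2410 ± 380.2, SD, n = 3). The intronic peak at rank 2232, 20.3 kb into the gene, ranked 2482, 2695 and 2011 (mean 2396 ± 350.0, SD, n = 3). The difference between their means is much smaller than the spread between replicates. Another pair of intronic peaks lay 3636 and 4302 bp downstream of the inner TSS, at ranks 2329 and 3208. The first of these varied more, with ranks of 2816, 1115 and 3368 in the replicates, and in replicate 2 it was the strongest foxo peak. The weakest, at rank 7992, ranked 9741, 7835 and 9112. The inner TSS itself, that of a single transcript, had no summit within 500 bp.

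The promoter and intronic windows of foxo are printed because these peaks of nearly equal rank lie far apart in the gene and differ in the motifs they hold. Each covers 100 bp either side of the summit on the plus strand, chr3R:14056635-14056835 and chr3R:14077135-14077335, and capitals mark motif matches.
foxo promoter: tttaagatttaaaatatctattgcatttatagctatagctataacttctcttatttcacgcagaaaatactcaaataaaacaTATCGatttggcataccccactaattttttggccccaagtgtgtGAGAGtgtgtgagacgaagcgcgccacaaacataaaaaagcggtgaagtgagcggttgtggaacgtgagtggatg
foxo intron: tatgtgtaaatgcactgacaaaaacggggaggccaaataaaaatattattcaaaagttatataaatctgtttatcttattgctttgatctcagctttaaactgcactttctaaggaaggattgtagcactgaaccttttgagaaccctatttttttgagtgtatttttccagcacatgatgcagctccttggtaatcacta
In the promoter window the capitals are the reverse complement of CGATA, the core of the sequence bound by the insulator protein BEAF-32, and GAGAG, the core bound by GAGA factor. The intronic window holds no match.

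Tor (FBgn0021796, named mTor in the annotation, 2L at 13004480 to 13013197), which encodes the kinase at the centre of the pathway, had no reproducible peak, but it had a strong candidate in 2 replicates. In replicate 1 the candidate was at rank 1368, with its summit 268 bp upstream of the Tor TSS. In replicate 3 it was at rank 3180, 293 bp upstream. Replicate 2 and the pooled list had no candidate region there, so it could not enter the reproducible set. The summits were nearer to the TSS of Vha68-1, a vacuolar ATPase subunit gene that starts on the other strand. The nearest reproducible summit to the Tor TSS was 30063 bp away.

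S6k (FBgn0283472, 3L at 5797549 to 5810931, minus strand) encodes the ribosomal protein S6 kinase that Tor activates, and its strongest peak was intronic and not at the promoter. That peak, 2684 bp downstream of the single TSS in the first intron, was at rank 1607 and ranked 1918, 1525 and 1393 in replicates 1, 2 and 3 (mean 1612 ± 273.1, SD, n = 3). The promoter peak, 71 bp downstream of the TSS, was at rank 6636 and ranked 12491, 4063 and 9155 (mean 8570 ± 4244, SD, n = 3). The ranks of both peaks do not overlap, and the intronic one is the stronger in every replicate. The promoter peak was below the strongest 9569 candidates in replicate 1. The peak at rank 4282 was 138 bp downstream of the TSS of the nested gene CG42272 and ranked 5557, 4072 and 4674. The last pair was unsteady between replicates: the peak at rank 7158 was at 20975 in replicate 1 against 4885 and 5911 in the others, and the peak at rank 9279 had no candidate in replicate 3.

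Thor (FBgn0261560, 2L at 3478434 to 3479612, plus strand) encodes the fly 4E-BP, a translation inhibitor that Tor inactivates and Foxo is known to activate in transcription. Its promoter peak was 31 bp downstream of the outer TSS and 57 bp upstream of the inner one, at rank 4896, with ranks of 5879, 5047 and 4332 in replicates 1, 2 and 3 (mean 5086 ± 774.2, SD, n = 3). With a width of 133 bp it was one of the narrow peaks of the set. The other peak, at rank 7877, lay 959 bp upstream in an exon of lncRNA:CR43928 and ranked 7172, 12563 and 7439.

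Lk6 (FBgn0017581, 3R at 11750931 to 11764457, minus strand) encodes the fly relative of the Mnk kinases, which phosphorylate the cap-binding protein eIF4E, and it held by far the strongest of the 27 peaks. The summit, at 11761044, was 3413 bp into the gene, in intron 1 of the long transcript and 965 bp upstream of the TSS of the shorter transcript. It ranked 10, 8 and 6 in replicates 1, 2 and 3 (mean 8 ± 2, SD, n = 3) and the replicate summits were at most 9 bp from the reproducible summit. Of 6166 reproducible peaks more than 500 bp from any TSS, 2 were stronger, and both were intronic. Among replicate candidates more than 500 bp from any TSS, 3, 3 and 2 were stronger in replicates 1, 2 and 3. The authors' signal at this peak was 63.7%, 69.0% and 76.6% of the highest in each replicate list, and 17.7, 15.4 and 17.6 times the median of the 9569 strongest candidates. The promoter of the long transcript had a far weaker peak, 38 bp downstream of the TSS at rank 4389, with ranks of 5655, 4369 and 4026 (mean 4683 ± 858.8, SD, n = 3). The remaining summit, 1237 bp downstream of the inner TSS, was at rank 8094 and ranked 10866, 8139 and 6356.

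**Figure D3:**
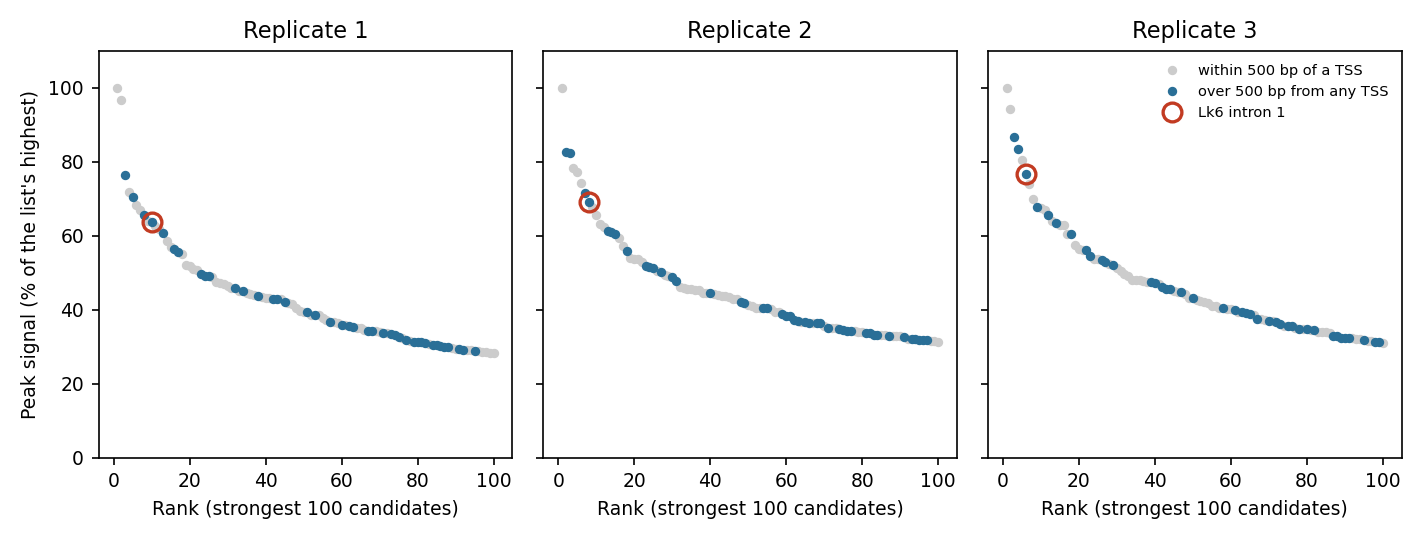
Peak signal, as a percentage of the highest in the list, of the 100 strongest candidates of each replicate against their rank. Grey points are within 500 bp of a TSS, blue points are not, and the red ring is the Lk6 peak, at 63.7%, 69.0% and 76.6% in replicates 1, 2 and 3.

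The windows of the Lk6, S6k and Thor peaks are shown as the strongest of each gene. All are on the plus strand of dm6, at chr3R:11760944-11761144, chr3L:5808147-5808347 and chr2L:3478365-3478433, and the last is only the part upstream of the outer Thor TSS. Capitals mark motif matches.
Lk6 intron 1: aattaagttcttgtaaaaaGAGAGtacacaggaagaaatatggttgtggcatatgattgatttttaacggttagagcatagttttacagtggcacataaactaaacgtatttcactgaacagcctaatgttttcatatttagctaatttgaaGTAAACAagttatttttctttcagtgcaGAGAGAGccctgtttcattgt
S6k intron 1: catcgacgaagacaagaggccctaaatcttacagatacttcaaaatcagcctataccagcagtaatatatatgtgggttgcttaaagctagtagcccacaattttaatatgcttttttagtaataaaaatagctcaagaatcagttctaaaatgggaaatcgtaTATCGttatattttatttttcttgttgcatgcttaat
Thor promoter: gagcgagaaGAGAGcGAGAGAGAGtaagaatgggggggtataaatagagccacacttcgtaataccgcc
The Lk6 window holds GTAAACA, the reverse complement of the core that Foxo and other forkhead proteins bind, and 3 copies of GAGAG, of which 2 overlap. The S6k window holds a BEAF-32 core, and the Thor stretch 4 copies of GAGAG, of which 3 overlap. The Thor summit lies outside the printed stretch. Its 4 GAGAG copies lie within 100 bp of the summit but upstream of the reproducible peak itself, which starts at 3478416.

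In all, 7 motifs were searched on both strands within 100 bp of each summit. They were the Foxo core TGTTTAC, the DNA replication-related element TATCGATA, the BEAF-32 core CGATA and the GAGA factor core GAGAG. The others were the E-box CACGTG, the motif 1 core GGTCACAC and the Zelda site CAGGTA. The BEAF-32 core is contained in the DNA replication-related element. The Foxo core was in 4 of the 27 windows (14.8%), beside 4.81% of all reproducible windows, and these were the strongest Lk6 peak, the Thor promoter peak (in the bases not printed), the InR peak at rank 7260 and the S6k peak at rank 9279. GAGAG was in 10 of 27 (37.0%), beside 26.4% of all, and 6 of these 10 were at InR. CGATA was in 6 of 27 (22.2%), beside 23.4% of all. The remaining 4 motifs were in none of the 27 windows. They occurred in 1.85%, 1.90%, 1.71% and 3.87% of all windows, in the order DNA replication-related element, E-box, motif 1 and Zelda. The windows were richer in G and C than most, with a median of 42.8% (range 24.9% to 59.7%) against 36.3%. At the genes' own TSSs the median was 47.3% over 7 windows, against 38.8% for all summits near a TSS of any gene. In introns it was 42.3% over 16 windows, against 35.3%. The strongest intronic windows of InR, foxo, Lk6 and S6k, at 30.3%, 33.8%, 32.3% and 31.8%, were below all of these medians. A match is only a run of letters, and 12 of the 27 windows come from InR.

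Gene length and peak number both differed widely among the 7 genes. InR, the longest, had the most peaks, but Thor, the shortest, had more than chico and Tor. Thor, at 1.18 kb, had 2 peaks, a count that 14.6% of protein-coding genes reach, and S6k and foxo had 5 each, which 3.05% reach. Of genes of 20 kb or more, among them foxo, 32.2% reach 5 peaks. Lk6 and S6k are of almost equal span, 13.5 and 13.4 kb, and had 3 and 5 peaks. Chico at 4.57 kb and Tor at 8.72 kb had none, and the median protein-coding gene, with a span of 2.17 kb, also had 0 peaks. The regions of the 7 genes add up to 135.5 kb and held 1.99 peaks per 10 kb, beside 0.715 per 10 kb over the main arms, which include intergenic sequence.

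**Figure D4:**
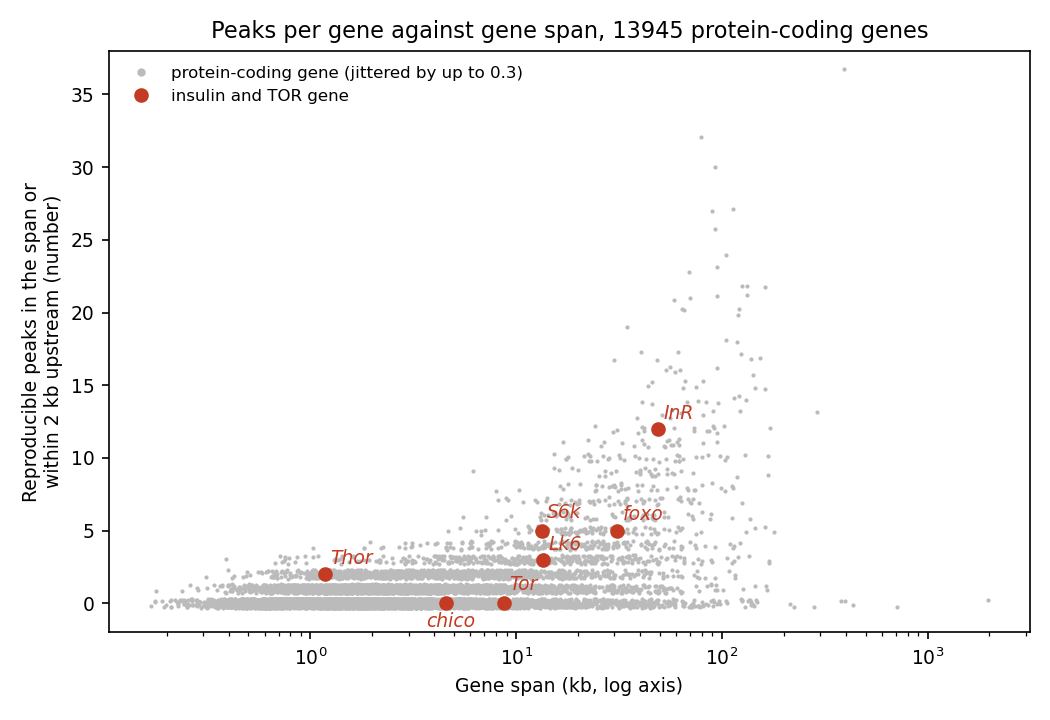
Number of reproducible peaks in the span or within 2 kb upstream against gene span (log axis) for 13945 protein-coding genes, with points spread vertically so that they can be seen. The 7 insulin and TOR genes are in red: InR is at 12 peaks and 49.1 kb, and Tor and chico are on the line of genes with 0 peaks.

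Among other genes of the pathway, 6 had a strongest peak that ranked, in every replicate, above all peaks of the 7 genes except the strongest one of Lk6. These were Akt, ImpL2, REPTOR, Sesn, melt and Lobe. A wider list of 50 further genes was drawn up. Of these, 22 (44%) had a peak and 16 (32%) a promoter peak, beside 33.2% and 23.1% of protein-coding genes. The 50 genes had a median span of 4.73 kb, against 2.17 kb for all protein-coding genes, and these shares were not matched for length. The strongest peak of the wider list was at Akt, the kinase downstream of PI3-kinase, with ranks of 75, 69 and 61 in replicates 1, 2 and 3. Its summit was 1413 bp upstream of the Akt TSS and nearer to a TSS of Mhcl, 946 bp away. ImpL2, whose product binds and inhibits insulin-like peptides and which is known as an ecdysone-inducible gene, had an intronic peak 1064 bp upstream of an inner TSS, at ranks 77, 96 and 117. REPTOR, a transcription factor that is active when Tor is not, had a promoter peak 175 bp upstream of a TSS at ranks 110, 89 and 107. Sesn, a stress- and leucine-responsive inhibitor of Tor complex 1, had one at 221 bp upstream, at ranks 152, 101 and 92. The ranges of these last 3 overlap.

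Other promoter peaks were weaker. Pi3K21B, the regulatory subunit of PI3-kinase, had a summit 24 bp upstream of its start, at a mean rank over replicates of 754 ± 340.3 (SD, n = 3), and melt, which encodes a membrane adaptor of the pathway, one 288 bp upstream (717.7 ± 178.9). Lkb1, an upstream kinase of AMPK, was at 1876 ± 307.2, scyl, an inhibitor of Tor activity, at 2335 ± 1038, and RpS6, the substrate of S6k, at 3175 ± 730.0. The RpS6 summit was nearer to the start of CR33222. Weaker still, the strongest peaks of Sdr, Ilp6, Ilp7, dock, Rheb and path were promoter peaks with mean replicate ranks from 5136 to 7994, where path had a candidate in 2 replicates only. The raptor peak lay at the TSS of Nep1. Away from TSSs, intronic peaks led at Lobe (annotated as PRAS40, 803 ± 77.1), Ptp61F (1144 ± 285.3) and Atg1 (2007 ± 851.2). Ptp61F, with a span of 132.8 kb, had 22 peaks.

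By role, 4 of 10 genes of ligands and binding proteins had a peak, 2 of 4 receptor-proximal genes and 4 of 6 of PI3-kinase and Akt. So did 5 of 10 genes of the TSC and Tor complexes, 4 of 11 of nutrient and energy sensing, and 3 of 9 outputs. The share over all protein-coding genes was 33.2%. Median spans ran from 1.05 kb for ligands and binding proteins to 12.3 kb for receptor-proximal genes. Differences between roles were not tested. No peak was found at Ilp1, Ilp2, Ilp3, Ilp4, Ilp5 or Ilp8, nor at Pi3K92E, Tsc1, gig, rictor or eIF4E1.

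**Figure D5:**
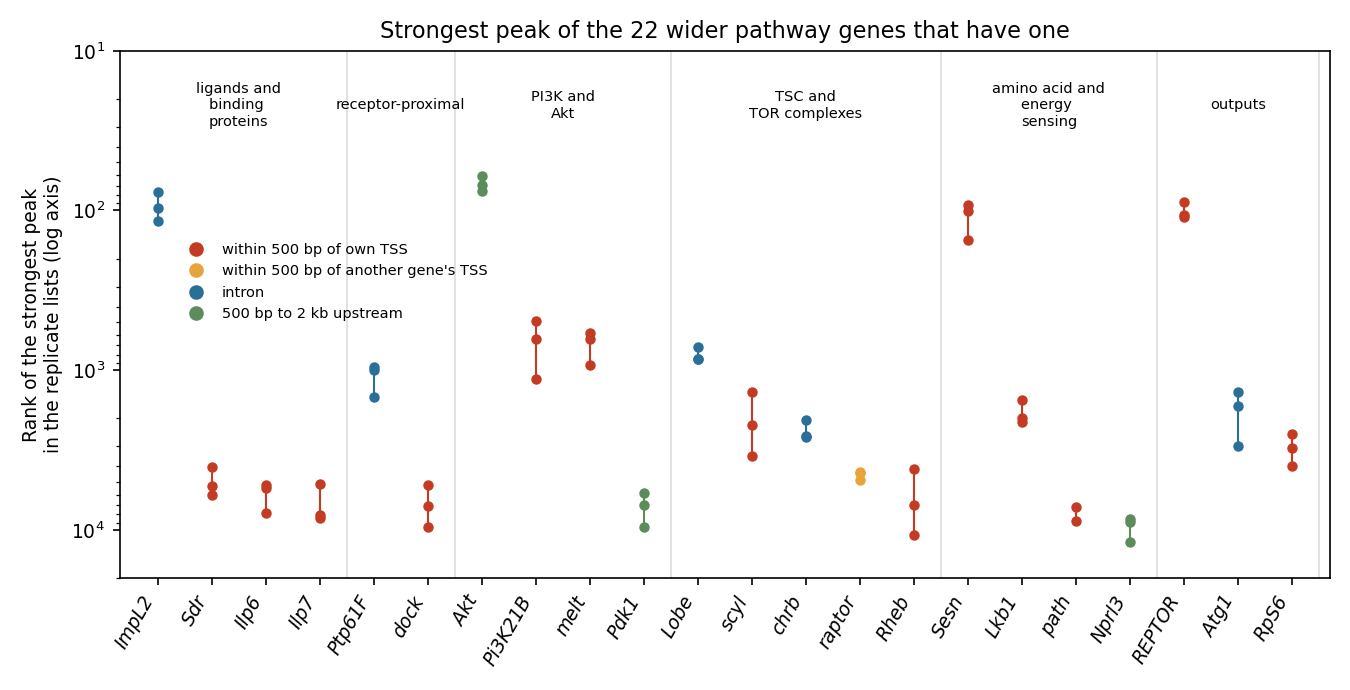
Rank of the strongest peak of each of the 22 wider pathway genes with a peak, in the 3 replicate lists (points joined by a line, log axis, strongest at the top), by role. Akt, ImpL2, Sesn and REPTOR are at ranks from 61 to 152, and the other 18 genes are at 490 or weaker.

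The 3 peaks more than 500 bp from any TSS whose replicate ranks were most like those of the Lk6 peak were found by the distance of log10 ranks over the 3 replicates. The nearest was in an exon of lncRNA:CR46035 inside osa, 718 bp from its TSS, at ranks 8, 7 and 9 (distance 0.209). Next came an intergenic peak 11979 bp from the nearest TSS, that of CG13323, at ranks 13, 15 and 12 (distance 0.422), and an intronic peak of CG32772 at ranks 16, 13 and 14 (distance 0.471).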

How the data were processed

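Per the deposited provenance texts, the authors derived a candidate list from the alignments of each replicate and 1 control file, a pooled list from all 3 replicates, and the reproducible list by a threshold on the irreproducible discovery rate. For the aligner, the peak caller and the threshold the sources used here give no name or value. Peak signal is the authors' deposited value on an unknown scale and was used within a list only. Ranking left out the −log10 q-values that the authors deposited, since 88.1% of reproducible peaks, and 26 of the 27 described, share the highest value, 4.23. The dm3 lists were not used. Annotation was Ensembl release 115 (BDGP 6.54, dm6 coordinates) and sequence the RefSeq genome of that assembly. All region ends fell within its arms.

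A reproducible peak was matched to the best-ranked replicate candidate overlapping it by 1 bp. Places were assigned in the order own TSS (500 bp), other TSS, coding exon, other exon, intron, upstream. Tor was matched as mTor. Of 50 wider pathway names, 49 matched directly and Lobe as PRAS40. Members and lists were chosen with earlier results of these data known. Named genes were the 7, wider genes whose strongest peak lay at a TSS, the 5 strongest peaks elsewhere, and the 3 peaks most like that of Lk6; other names complete counts and were picked with their values in view. No test was made. Gene assignment was checked on planted summits. Alternatives covered reach, window, threshold, summit or overlap, nearest TSS and each replicate left out. Python 3.11.15, numpy 2.4.6, pandas 2.3.3, scipy 1.17.1 and matplotlib 3.10.9 were used.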

Additional observations from a re-analysis of the deposited data

How the results depend on the processing

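The number of genes with a peak stayed at 5 of 7 under an upstream reach of 500 bp or 5 kb, with any overlap in place of summits, with nearest TSSs only and without any 1 replicate, and was 4 with the strongest 4784 peaks, which drops Thor. Among those, 14 of 27 peaks were left, 3 of 7 promoter peaks at 3 genes and 9 of 16 intronic peaks. Of the 50 wider pathway genes, 14 had a peak and 7 a promoter peak in place of 22 and 16. For these genes the setting was chosen after seeing the data. At this setting 23.1% of all protein-coding genes had a peak and 14.4% a promoter peak. The 7 of 50 with a promoter peak thus lay near the share over all genes. When a peak counted only for the gene of its nearest TSS, 16 peaks were left. A promoter window of 1000 bp gave 11 promoter peaks, among them the strongest Lk6 peak, and 12 intronic ones. With each replicate left out in turn, 1 at a time, and a match among the 9569 strongest candidates required in the other two, there were 20 to 25 peaks, 6 to 7 promoter peaks at 4 to 5 genes and 11 to 15 intronic peaks, and 19 to 21 wider genes, 13 to 15 of them with a promoter peak; S6k lost its promoter peak without replicate 2 or 3. The mean rank of the strongest Lk6 peak was 7 to 9. The share of all genes with a peak was 23.1% to 42.0% across these settings and that with a promoter peak 14.4% to 26.9%. Read depth is unknown, so weak sites cannot be told from none. No paired analysis was possible because there is 1 group.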

Other observations

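The window at the InR promoter peak holds 3 copies of the run AACTCTGT, a run chosen after the window had been seen. The run occurs on either strand in 54 of 9569 reproducible windows (0.564%), and 1 window, that of InR, has 3 or more.

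The candidate at the Tor and Vha68-1 starts, which replicates 1 and 3 list and the pooled list does not, is not the only case. Of the 9569 strongest candidates, 250 in replicate 1, 410 in replicate 2 and 355 in replicate 3 had no overlapping region among the 30000 pooled candidates (2.61%, 4.28% and 3.71%). Of these, 139, 310 and 255 lay within 500 bp of a TSS. In the reproducible list, a different set of regions, 35.6% of peaks lay that near to a TSS. A second cut was set at 3180, the rank of the Tor candidate in replicate 3, so it includes that candidate by choice. Among the strongest 3180 of each replicate, the numbers were 41, 57 and 75 (1.29%, 1.79% and 2.36%).

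Peak width went with rank. Of the 27 peaks, 15 had the most common width of 436 bp, with a median rank of 7014, and the other 12, from 109 to 499 bp wide, a median rank of 2212. Over all reproducible peaks the medians were 6805 and 2150.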
